A study of Homo sapiens with 12 samples.

Results

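miR-21 is one of the most studied microRNAs of the heart, and its hairpin gives rise to a pair of mature forms, miR-21-5p and miR-21-3p. Both were looked up by name, as hsa-miR-21-5p and hsa-miR-21-3p, and these 2 names were followed through all 12 libraries among the 2656 mature miRNA names listed. The study sequenced small RNA of AC16, an established human line derived in part from cells of ventricular heart tissue, and of the exosomes isolated from it. The groups were exosomes Ang, exosomes Con, cells Ang and cells Con, with 3 libraries each. All carry the same line and differ only in compartment and in the Ang or Con label. The column headers of the Ang libraries read AngII. The labels give neither its full name nor a dose or time, and name no treatment for Con. AC16 is a single line, and no label says whether the numbered replicates were separate cultures, so p-values measure the spread between these libraries, which may be technical. The labels name miRNeasy Micro for the cells and exoRNeasy Maxi for the exosomes, so effects of compartment and of kit cannot be told apart.

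A microRNA hairpin is cut into a short duplex, and usually 1 strand, the guide, is kept in an Argonaute protein while the other, the passenger, is degraded. In miR-21 the 5p strand is the guide. It represses messengers such as PDCD4 and SPRY1, and it has been studied as a promoter of cardiac fibrosis and hypertrophic signalling, largely through fibroblasts. The 3p strand is the passenger, and it has been described as a signal carried in exosomes from cardiac fibroblasts to cardiomyocytes. Angiotensin-driven heart growth is a setting in which both strands have been discussed.

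The sequences below show the seed, bases 2 to 8, by which a miRNA pairs with its targets, in capitals for the mature forms, and the position of the 5p arm, in capitals, within the hairpin. They come from RefSeq on GRCh38.p14.
miR-21-5p: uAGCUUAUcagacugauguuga
miR-590-5p: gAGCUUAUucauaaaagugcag
MIR21 hairpin: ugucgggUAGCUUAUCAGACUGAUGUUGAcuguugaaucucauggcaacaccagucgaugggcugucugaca

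The hairpin lies on the plus strand at chr17:59841266-59841337, and the 5p arm fills bases 59841273 to 59841294. In GENCODE release 29 (GRCh38) the MIR21 gene begins 173 bases past the last end of a protein-coding transcript of VMP1, a gene of vacuole membrane and autophagy biology. It lies inside an exon of 1 VMP1 transcript that is annotated as a retained intron. RefSeq gave a mature sequence for 2367 of the 2656 names (89.1%), and miR-21-3p was not among them. Seed relatives, base composition and motifs are therefore given for the 5p arm only. miR-590-5p, encoded on chromosome 7, was the 1 other matched name with the seed of miR-21-5p, and it has the same base at 8 of 22 positions. miR-21-5p begins with U, as did 36.8% of matched names. Its GC content of 36.4% was low, with 9.55% of matched names lower still.

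The values are counts of unique molecular identifiers (UMIs), which mark single molecules, and CPM here is the count divided by the library total and multiplied by 1000000. Library totals ran from 697049 to 1029883 UMIs in exosomes and from 413513 to 528844 in cells. CPM values are shares of a library, so fewer molecules per cell or vesicle and more of other small RNAs cannot be told apart. Of 7 muscle miRNAs, which include miR-1-3p, miR-133a-3p and miR-499a-5p, all 7 had counts in each cell library, but they summed to only 285 to 326 CPM in cells Ang and 344 to 376 CPM in cells Con. Exosomes Con replicate 1 and cells Ang replicate 2 stood apart from their groups. Over names, the chi-square per degree of freedom of exosomes Con replicate 1 against the others of its group was 6.57 and 10.6, where the others differed by 1.91. For cells Ang replicate 2 it was 4 and 4.37, where the others differed by 1.99. A set of 7 blood and serum miRNAs, among them miR-451a and miR-486-5p, was lowest of its group in exosomes Con replicate 1 and highest in cells Ang replicate 2. It summed to 346, 643 and 476 CPM in exosomes Ang, to 552, 1194 and 1279 CPM in exosomes Con, to 2041, 6895 and 2172 CPM in cells Ang and to 2134 to 2374 CPM in cells Con.

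hsa-miR-21-5p was far lower in every exosome library than in every cell library. In exosomes it stood at 924, 1264 and 822 CPM in the Ang libraries, against 489, 789 and 1082 CPM in the Con libraries. These Ang and Con ranges overlapped, and it held ranks 115 to 149 in exosomes Ang and 140 to 217 in exosomes Con. In cells it was among the leading miRNAs and held rank 3 in each of the 6 libraries. It stood at 29870, 28120 and 29800 CPM in cells Ang, against 27580, 25210 and 26330 CPM in cells Con. That is 2.81% to 2.99% of all UMIs in cells Ang and 2.52% to 2.76% in cells Con.

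hsa-miR-21-3p was a minor form everywhere. In exosomes it had 0, 5 and 4 UMIs in the Ang libraries, against 4, 4 and 8 in the Con libraries, which is 0 to 5.22 CPM and 3.88 to 8.24 CPM. A floor of 3 counts corresponds to 2.91 to 4.30 CPM in exosome libraries, so the exosome values lie at or close to it. For the single library with 0 counts the floor is 4.30 CPM, and its two-sided 95% exact interval reaches 5.29 CPM. Floors and intervals per library cover counting error only. In cells it stood at 218, 196 and 189 CPM in the Ang libraries, against 210, 213 and 217 CPM in the Con libraries, from 81 to 111 UMIs each.

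**Figure D1:**
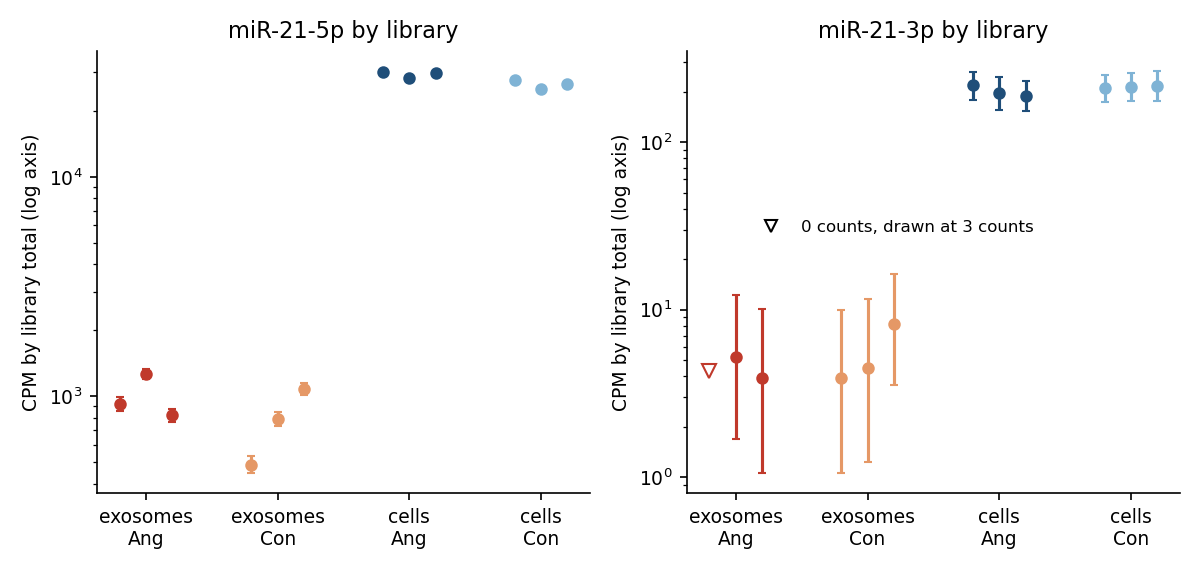
CPM (log axis) of miR-21-5p (left) and miR-21-3p (right) in each library of exosomes Ang, exosomes Con, cells Ang and cells Con, with 95% exact binomial intervals for counting error. All exosome libraries lie below all cell libraries for both forms, and the open triangle marks the exosomes Ang library with 0 counts of miR-21-3p, drawn at 3 counts.

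Between compartments, both forms were lower in exosomes than in cells. In Ang, miR-21-5p averaged 1003 ± 232 CPM in exosomes and 29260 ± 988 CPM in cells (SD, n = 3 each). The fit, which scales libraries by trimmed means (TMM), put it 7.87-fold lower in exosomes (log2 -2.98, SE 0.12, adjusted p = 4.88e-13, edgeR quasi-likelihood test with Benjamini-Hochberg adjustment over all tested names). In Con it averaged 787 ± 296 CPM in exosomes and 26380 ± 1186 CPM in cells, 11.8-fold lower in exosomes (log2 -3.55, SE 0.22, adjusted p = 8.47e-08 by the same edgeR fit). Such calls were common, since 83.3% of tested names passed in Ang (38.2% higher and 45.1% lower in exosomes) and 83.3% in Con (39.2% higher and 44.2% lower). Exosome and cell libraries did not overlap in CPM for miR-21-5p, as was the case for 91% of tested names in Ang and 89.1% in Con. Without cells Ang replicate 2 the Ang difference was log2 -2.99, and without exosomes Con replicate 1 the Con difference was log2 -3.30.

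In Ang, miR-21-3p averaged 3.05 ± 2.72 CPM in exosomes and 201 ± 15.2 CPM in cells, 15.8-fold lower in exosomes (log2 -3.98, SE 0.34, edgeR adjusted p = 7.36e-09). In Con it averaged 5.54 ± 2.36 CPM in exosomes and 213 ± 3.54 CPM in cells, 13.2-fold lower in exosomes (log2 -3.73, SE 0.23, edgeR adjusted p = 5.74e-08). It passed the filter on low counts in these comparisons through the cell libraries alone, so a difference in this direction was fixed by the filter. Summed over libraries, exosomes Ang held 9 UMIs of it, against 285 in cells Ang, and exosomes Con held 16, against 313 in cells Con.

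The size of these differences depended on the scaling. By library totals in place of TMM, miR-21-5p was lower in exosomes at log2 -4.87 in Ang and -5.07 in Con, and miR-21-3p at -5.83 and -5.22. In plain CPM miR-21-5p was 29.2-fold and 33.5-fold lower. Library totals moved the median of all tested names by -1.88 in Ang and -1.51 in Con, to log2 -2.19 and -1.78, against -0.31 and -0.27 on the TMM scale. On the TMM scale 12.1% of tested names had a lower log2 difference than miR-21-5p in Ang and 8.89% in Con. miR-21-5p stood well below the median name, though not at the extreme. For miR-21-3p these shares were 4.98% and 7.54%, given as a description because the filter fixed its direction.

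**Figure D2:**
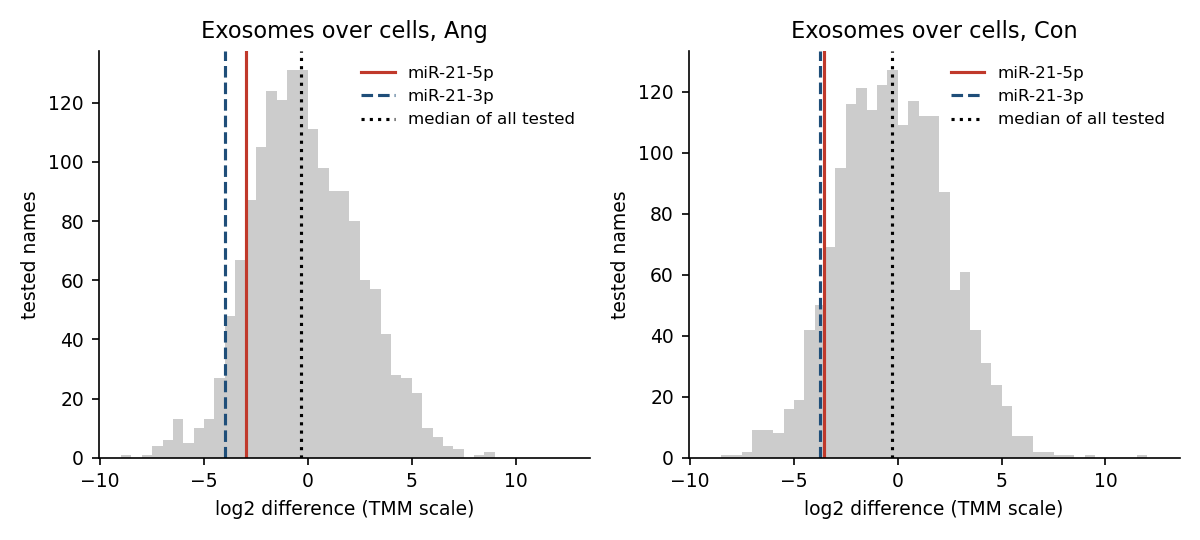
Histograms of the log2 difference of exosomes over cells (TMM scale) for all tested names in Ang (left) and Con (right), with lines for miR-21-5p, miR-21-3p and the median. Both arms lie in the lower part of each distribution, at log2 -2.98 and -3.98 in Ang and at -3.55 and -3.73 in Con.

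Base composition moved with the compartment difference across names. Spearman's rho between GC content and the log2 difference was 0.578 over 1461 names in Ang and 0.577 over 1536 names in Con, a description of names that share libraries. Names within 5 percentage points of the GC content of miR-21-5p had a median log2 difference of -2.36 in Ang (230 names) and -2.51 in Con (246 names). Of these names, 35.2% in Ang and 29.3% in Con had a lower value than miR-21-5p. The part of GC content in the miR-21-5p difference was not tested.

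Short motifs have been linked to sorting of miRNAs into vesicles, GGAG through hnRNPA2B1 and GGCU through SYNCRIP. Searched on the mature strand only, neither GGAG nor GGCU occurs in miR-21-5p. GGAG occurs in 15.7% and GGCU in 12.6% of the 2367 matched sequences. Tested names with GGAG had a median log2 difference of exosomes over cells of 0.69 in Ang and 0.76 in Con, against -0.53 for names without it in either group. Names with GGCU had medians of 0.42 and 0.58, against -0.42 and -0.37 without it. Both motifs are rich in G and C, and these medians are descriptions.

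The next question was whether the 3p strand makes up more of the miR-21 in exosomes than in cells. The measure, the count of 3p as a share of both arms in the same library, needs no scaling between libraries. It was 0%, 0.412% and 0.474% in exosomes Ang, against 0.787%, 0.567% and 0.755% in exosomes Con. It was 0.725%, 0.692% and 0.631% in cells Ang, against 0.755%, 0.838% and 0.817% in cells Con. All exosomes Ang values, which rest on 0, 5 and 4 UMIs of 3p, lay below all values of the other groups. Of precursors with a mean of at least 1 count in each arm, 27.1% had arm ratios that did not overlap between exosomes Ang and exosomes Con, and 66.4% between exosomes Ang and cells Ang. Exosomes Con values overlapped those of both cell groups. For the exosomes Ang library with 0 counts the floor of 3 counts is 0.466%, and the two-sided 95% Clopper-Pearson interval reached 0.571%.

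Summed over libraries, 9 UMIs of miR-21-3p were counted in exosomes Ang, where the share found in cells Ang would have given 18.4. In exosomes Con, 16 were counted, where the share found in cells Con would have given 18.2. The odds of 3p against 5p in exosomes relative to cells were 0.487 in Ang (95% interval 0.220 to 0.939) and 0.878 in Con (0.495 to 1.45), with intervals that cover counting error only. The pooled 3p share was thus not higher in exosomes than in cells in either group. The interval in Ang lies below 1, and that in Con reaches odds 1.45 times those of the cells.

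Across libraries, the log2 ratio of 5p over 3p counts, each with 0.5 added, was fitted with limma over all precursors with both arms counted. The planned minimum mean of 10 counts per arm and group kept miR-21 in the comparison within cells only, and a minimum of 1 was used for the rest. In Ang the ratio was higher in exosomes than in cells by log2 1.37 (SE 0.58, limma adjusted p = 0.0596, 59.5% of 634 precursors called). In Con the difference was log2 0.07 (SE 0.21, 95% interval -0.39 to 0.53, limma adjusted p = 0.787, 61.4% of 660 called), and its sign turned with a count of 1 added or without exosomes Con replicate 2. The exact two-sided permutation p was 0.1 in Ang, the smallest that 3 against 3 allows, and 0.8 in Con. Over all 12 libraries, with compartments exchanged within Ang and within Con, the mean difference was log2 0.72 (exact permutation p = 0.04, where the smallest possible is 0.005). That call ended with a count of 1 added (log2 0.45, exact permutation p = 0.155). It also ended without exosomes Ang replicate 1, the library with no 3p count (log2 0.28), and without exosomes Con replicate 2, any 1 of the cells Ang libraries, or cells Con replicate 2 or 3 (log2 0.66 to 0.75). The Ang difference by limma, which did not pass, was log2 0.48 without that library, and it passed with a count of 1 added (log2 0.96, adjusted p = 0.0467) and without exosomes Ang replicate 2 or 3 (log2 1.76 and 1.88).

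**Figure D3:**
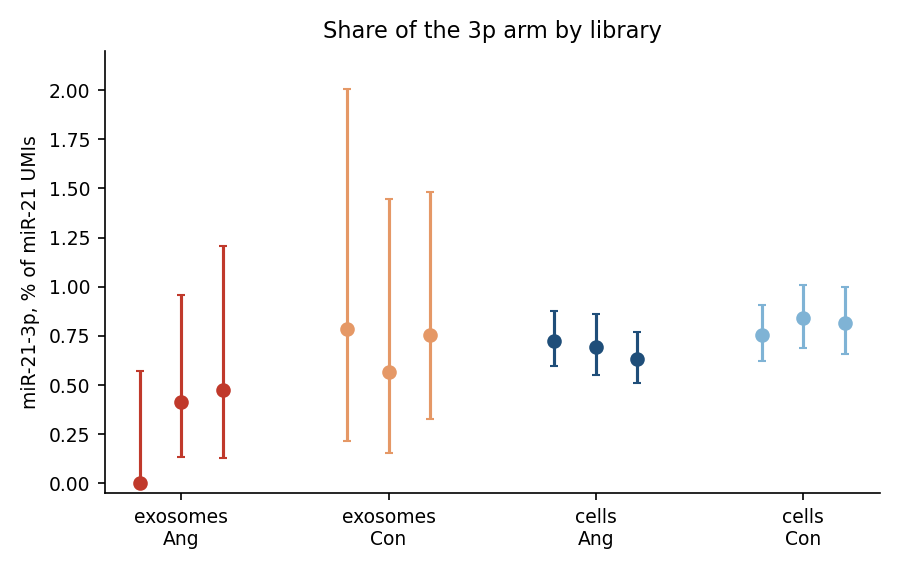
miR-21-3p as a percentage of miR-21 UMIs of both arms in each library of exosomes Ang, exosomes Con, cells Ang and cells Con, with 95% Clopper-Pearson intervals. The intervals of exosome libraries are wide because they rest on 0 to 8 UMIs of miR-21-3p, and the exosomes Ang libraries sit lowest, between 0% and 0.474%.

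Set against other precursors, miR-21 had one of the stronger preferences for the 5p arm. In cells Ang its pooled log2 ratio of 5p over 3p was 7.19, at rank 4 of 377 precursors with a mean of at least 10 counts in each arm, after let-7a, miR-593 and let-7i. In cells Con it was 6.95, and 6 of 360 precursors were higher. The median precursor stood at -0.14 in cells Ang and 0.05 in cells Con, so neither arm dominated in general. In exosomes, with a minimum mean of 1 count, miR-21 held rank 12 of 635 precursors in Ang (log2 8.15) and rank 19 of 666 in Con (log2 7.10). At that same minimum it held rank 19 of 842 in cells Ang and rank 20 of 835 in cells Con. Shifts of arm ratio between compartments were large for many precursors, with a median absolute difference of log2 1.70 in Ang and 1.61 in Con. The shift of miR-21 was log2 1.37 in Ang, somewhat below that median, and log2 0.07 in Con, small beside it. Among the most extreme precursors, with at least 10 counts per arm, miR-6785 shifted by log2 -11.08 in Ang and -10.36 in Con, and miR-369 by 6.35 and 6.34.

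**Figure D4:**
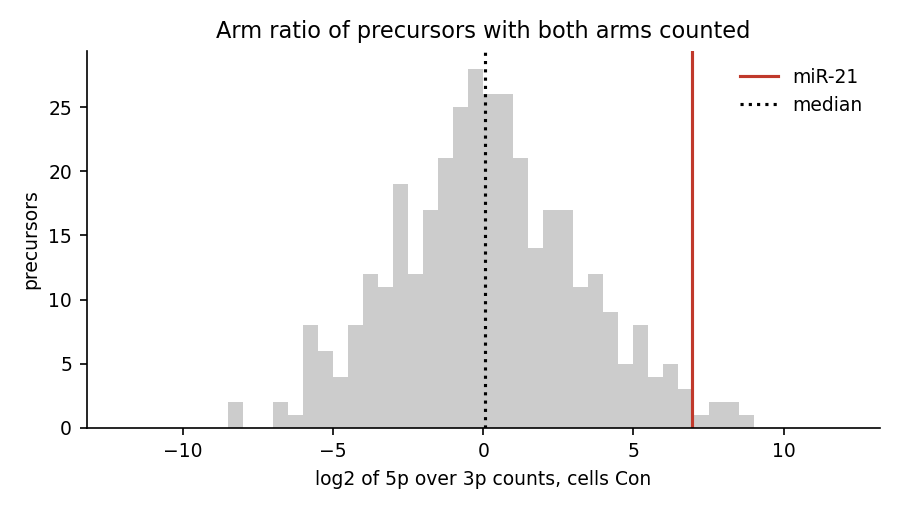
Histogram over 360 precursors of the log2 ratio of pooled 5p over 3p counts in cells Con, with lines for miR-21 and the median. miR-21 lies at 6.95, in the right tail, and the median at 0.05.

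Ang was compared with Con within each compartment, the comparison nearest to the hypertrophic cardiomyocytes of the series title. In exosomes miR-21-5p averaged 1003 ± 232 CPM in Ang and 787 ± 296 CPM in Con (SD, n = 3 each), and the groups overlapped, where 52.4% of tested names had groups that did not. Its log2 change was 0.53 (SE 0.23, 95% interval 0.01 to 1.04, edgeR adjusted p = 0.107), so it did not pass the threshold of 0.05, where 34% of 1199 tested names did. Of the tested names 86.7% had a lower log2 change. It passed in a fit to all 12 libraries (log2 0.60, adjusted p = 0.0303) and without exosomes Con replicate 3 (log2 0.80, adjusted p = 0.015). Without exosomes Con replicate 1, the library that stood apart and held the lowest value, it was log2 0.30 (adjusted p = 0.148), and over all alternatives adjusted p ran from 0.015 to 0.329. Library totals, which moved the median of all names by -0.17, gave log2 0.35.

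miR-21-3p was below the count filter in exosomes and was not tested there. Its summed counts of 9 in Ang and 16 in Con gave a ratio of 0.607 by library totals, with a 95% interval of 0.237 to 1.46 for counting error. With no count filter edgeR gave log2 -0.60 (SE 0.64, adjusted p = 0.64). The interval spans 1, so these counts do not show whether the level changed or in which direction.

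In cells miR-21-5p averaged 29260 ± 988 CPM in Ang and 26380 ± 1186 CPM in Con. The groups did not overlap, as was the case for 22.4% of the 1630 tested names. The lowest Ang library, 28120 CPM, was close to the highest Con library, 27580 CPM. Its log2 change was 0.14 (SE 0.06, 95% interval 0.01 to 0.26, edgeR adjusted p = 0.225) and did not pass, where 6.56% of names did. Cells Ang replicate 2, which carried the most blood and serum miRNA, had the lowest miR-21-5p of its group, and without it the change was log2 0.16 (edgeR adjusted p = 0.138).

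miR-21-3p in cells averaged 201 ± 15.2 CPM in Ang and 213 ± 3.54 CPM in Con, and the groups overlapped. Its log2 change was -0.10 (SE 0.12, 95% interval -0.36 to 0.16, edgeR adjusted p = 0.737). The 5p over 3p ratio differed between Ang and Con in cells by log2 0.24 (SE 0.16, limma adjusted p = 0.518, 2.35% of 341 precursors called). Every Ang library had a higher ratio than every Con library, at 137, 144 and 158 against 131, 118 and 121 UMIs of 5p per UMI of 3p, and the exact permutation p was 0.1, the smallest possible. Groups that did not overlap in arm ratio were found for 19.1% of these precursors. In exosomes the same difference was log2 1.54 (SE 0.72, limma adjusted p = 0.21, 11.3% of 602 called). The exact permutation p was 0.1, again the smallest possible. The lowest difference with 1 library left out was log2 0.65, without exosomes Ang replicate 1, which had 0 UMIs of 3p. No exosome library had more than 8 UMIs of 3p.

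The change under Ang in exosomes minus that in cells was log2 0.52 for miR-21-5p (SE 0.26, 95% interval -0.03 to 1.07, edgeR adjusted p = 0.237, 15.1% of 1835 names called, 9.97% higher and 5.18% lower). It passed without exosomes Con replicate 3 (log2 0.81, adjusted p = 0.0137) and was 0.20 by library totals, which moved the median of all names by -0.31. Without exosomes Con replicate 1 it was log2 0.23. For miR-21-3p it was log2 -0.31 (SE 0.56, edgeR adjusted p = 0.832), with a sign that turned without exosomes Con replicate 3 or exosomes Ang replicate 1. The exosome side of that value rests on 9 UMIs in Ang and 16 in Con. miR-21-3p entered this fit only because the cell libraries passed the count filter. For the arm ratio it was log2 1.30 (SE 0.69, limma adjusted p = 0.401, 2.99% called), and log2 0.41 without exosomes Ang replicate 1. A difference in the Ang response between exosomes and cells was thus not shown for miR-21-5p. For miR-21-3p the exosome counts are too few to decide.

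**Figure D5:**
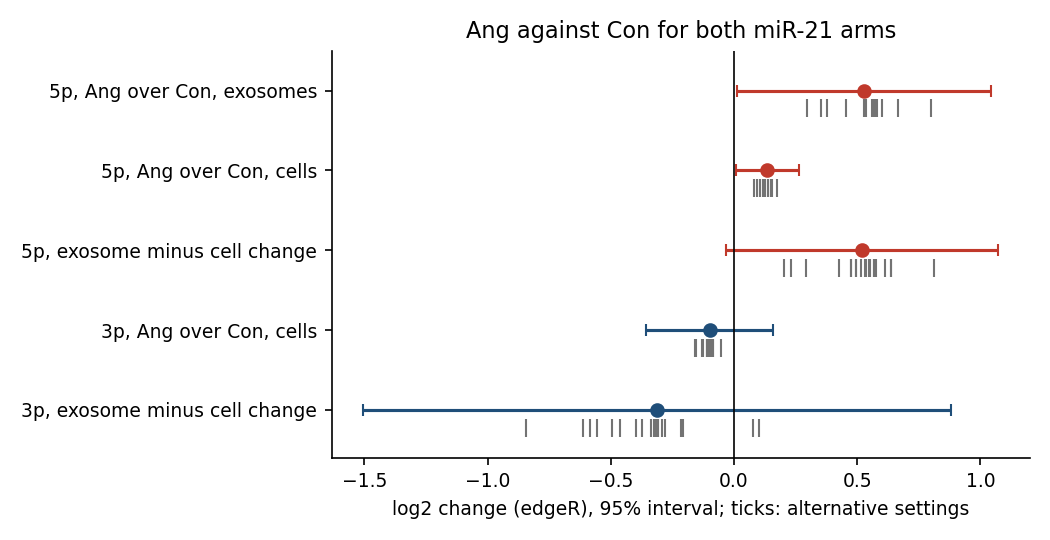
Log2 change of Ang over Con for miR-21-5p in exosomes and cells, for miR-21-3p in cells, and the exosome minus cell difference for both, as points with 95% intervals from edgeR, with grey ticks for the alternative settings. The miR-21-5p values lie above 0 under every setting drawn, from 0.30 to 0.80 in exosomes and from 0.08 to 0.17 in cells, and no point passed the threshold of 0.05 after adjustment.

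miR-590-5p, which shares the seed, was far rarer. It had 19, 16 and 20 UMIs in cells Ang, against 15, 16 and 11 in cells Con, or 38.8 ± 0.166 and 28.4 ± 2.53 CPM. Its log2 change was 0.42 (SE 0.26, edgeR adjusted p = 0.462) and did not pass. In exosomes it had 1 UMI in Ang and 1 in Con in all, against 55 and 42 in cells. Among names with a RefSeq sequence, miR-21-5p therefore made up nearly all counts with this seed in both compartments.

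The names whose pattern over the 12 libraries was most like that of miR-21-5p, by root-mean-square difference of centred log2 CPM (TMM scale) among 1835 names, were miR-31-5p (0.134), miR-181a-3p (0.197), miR-369-3p (0.222), miR-8083 (0.233) and miR-29b-3p (0.253), where the median name was at 1.57. miR-31-5p averaged 154 ± 19.2 CPM in exosomes Ang, 129 ± 39.3 in exosomes Con, 4217 ± 158 in cells Ang and 4127 ± 182 in cells Con. For miR-21-3p they were miR-101-3p (0.321), miR-147b-5p (0.442), miR-6511b-3p (0.451), miR-548as-3p (0.453) and miR-2681-3p (0.478). The arms of miR-21 were not each other's nearest names. At a difference of 0.692, miR-21-3p was number 235 in the order of likeness to miR-21-5p. In the order for miR-21-3p, miR-21-5p was number 71. The exosome values of miR-21-3p that enter this difference rest on 0 to 8 UMIs. All these likenesses share the large step between compartments and the same libraries.

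Other miRNAs discussed with miR-21 in heart growth and fibrosis gave a background for its values. Of 16 listed as promoting them, such as miR-208a-3p, miR-132-3p and miR-214-3p, 2 of 12 tested rose in Ang exosomes, miR-27b-3p (log2 0.59, SE 0.14, edgeR adjusted p = 0.00846) and miR-214-3p (log2 0.48, SE 0.11, edgeR adjusted p = 0.00577). From the same 12, miR-212-3p fell (log2 -1.12, SE 0.245, edgeR adjusted p = 0.00553). Of all tested names 17% were called higher and 17% lower. Their median log2 change was 0.15, against -0.05 for all tested names. In cells 1 of 15 passed, miR-208a-3p, which was lower (log2 -0.47, SE 0.13, edgeR adjusted p = 0.0447), where 3.8% of all names were called lower. DESeq2 called 0 of these 15 and limma-voom 2, and 3 had an unadjusted p under 0.05. Of 7 listed as opposing fibrosis, including the miR-29 family and miR-133a-3p, 0 of 6 passed in exosomes and 0 of 6 in cells by edgeR. Of all tested names 34% and 6.56% were called. In either compartment 0 of these 6 had an unadjusted p under 0.05, and 0 were called by DESeq2 or limma-voom. Counts by DESeq2, limma-voom and unadjusted p have no share over all names beside them here. Between compartments, 13 of 15 promoting members were lower in exosomes in Ang and 12 of 15 in Con, and 6 of 6 and 6 of 7 opposing members, where 45.1% and 44.2% of all tested names were called lower. Of the promoting members 1 was higher in Ang and 2 in Con, where 38.2% and 39.2% of all tested names were called higher. The median log2 difference of the promoting list was -1.71 in Ang and -1.95 in Con, and that of the opposing list was -2.29 and -2.33, against -0.31 and -0.27 for all tested names. miR-21-5p, at -2.98 and -3.55, lay below the medians of both lists.

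Among miRNA genes with a mature name listed in these data, RefSeq places MIR454, MIR301A and MIR4737 within 1000000 bases of MIR21 on chromosome 17. The most abundant of their products, miR-454-3p, averaged 30.6 ± 5.32 CPM in exosomes Ang, 32.0 ± 19.3 in exosomes Con, 778 ± 77.6 in cells Ang and 693 ± 88.5 in cells Con. miR-4737, whose gene is the nearest of these at 201759 bases, reached at most 14.3 CPM in any library. All stood far below miR-21-5p.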

How the data were processed

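Small RNA libraries of AC16 cells and exosomes were made with a QIAseq miRNA kit, per the labels' protocols. The authors deposited raw UMI counts for each mature miRNA, as the file headers show. The submitters' processing notes name cutadapt and GRCh38. Aligner, annotation and counting tool: not given in the sources used here. Exosome files list 2580 names and cell files 2656. The 76 missing names, with at most 20 counts in any cell library, were set to 0.

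Each comparison was fitted over all names with edgeR 4.0.16 in R 4.3.3 (filterByExpr, TMM, quasi-likelihood, two-sided, Benjamini-Hochberg, threshold 0.05). It used the 6 libraries compared or, for the interaction, all 12. Arm ratios were fitted with limma 3.58.1 (trend on) and tested by exact permutation. The scripts were tested on simulated data. The members, lists and named miRNAs were chosen with earlier results of these data known. Named besides the members were seed relatives, the 5 most similar names per arm, precursors with extreme arm shifts and up to 3 called members per list with the lowest p. Neighbouring genes, sequence motifs and GC content were added outside that rule. The planned arm ratio minimum of 10 counts left miR-21 out of comparisons with exosomes, where 1 was used.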

Additional observations from a re-analysis of the deposited data

How the results depend on the processing

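Scaling was varied (RLE, library totals and, chosen after seeing the data, library totals without miR-552-3p and miR-3972), as were the tool (DESeq2 1.42.0, limma-voom), the filter (none, or a mean of at least 10 CPM), the libraries fitted (all 12, or 1 left out) and the replicate block. For arm ratios they were a pseudocount of 1, a minimum mean of 1 or 30 counts, no trend, the block and each library left out. A minimum of 30 counts gave no arm ratio for comparisons with exosomes, and most alternatives gave none for miR-21-3p in exosomes, which stayed under the filter. miR-21-5p stayed lower in exosomes and past the threshold under all 15 alternatives run for each comparison. miR-21-3p did so too, but the filter fixed its direction, so this says nothing about stability. The change of miR-21-5p in exosomes passed in the fit to all 12 libraries (log2 0.60) and ran from 0.30 to 0.80 with a library left out. Its difference between compartments ran from 0.23 to 0.81, and that of miR-21-3p from -0.84 to 0.10, reversing at 0.08 and 0.10. The arm ratio difference over all 12 libraries ran from 0.28 to 0.97 with a library left out, with 5 of 12 past the threshold, and lost its call with a pseudocount of 1 (log2 0.45, exact permutation p = 0.155). In Ang it ran from 0.48 to 1.88 and passed with a pseudocount of 1 (log2 0.96). In Con it reversed with a pseudocount of 1 (log2 -0.05) and ran from -0.062 to 0.18 with a library left out. The cause was not tested. The count of names called in cells, 107, fell to 38 without cells Con replicate 2 or 3 and to 70 without cells Ang replicate 1.

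Same-numbered libraries did not deviate together (correlations from -0.048 to 0.106), so the numbers are not taken as pairs. With the replicate block the arm ratio difference passed in Ang (log2 1.37, limma adjusted p = 0.0275) and did not over all 12 libraries (log2 0.72, exact permutation p = 0.0938). No call of either arm changed. The change of miR-21-5p in exosomes was log2 0.56 with the block, and the count of names called in cells 132. Depth limits miR-21-3p in exosomes, where 0 to 8 UMIs stand behind each value.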

Other observations

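The 2 endothelial miRNAs, miR-126-3p and miR-126-5p, summed to 84.6 to 233 CPM in exosomes Ang and to 130, 434 and 473 in exosomes Con. They summed to 524, 4665 and 517 CPM in cells Ang and to 575 to 675 in cells Con. The 3 liver miRNAs summed to 47.3 to 70.0 CPM, 35.9 to 185, 95.8 to 288 and 80.2 to 114 CPM in the same order of groups. For both sets the lowest exosomes Con value was that of replicate 1, and the highest cells Ang value that of replicate 2.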
